A study of Rattus norvegicus with 4 samples.

Results

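The genes described here encode the classical axon guidance ligands and their receptors: semaphorins with plexins and neuropilins, ephrins with Eph receptors, Slits with Robos, and netrins with DCC and the UNC5 receptors. They were taken by name from a whole-genome rat oligonucleotide array, as every non-control probe whose gene name began with the family's letters. This gave 64 gene names on 91 probes, of 35658 gene names on 41012 probes. Of the 64, 33 encode ligands and 29 encode receptors. The other two, Unc50 and Unc5cl, match the letters of the UNC5 family but are not netrin receptors. A gene was tested when the scanner software marked at least 1 of its probes as well above background throughout the arrays of CC-CJ, of AA-CJ or of CC, the RNAs described next. That left 44 of the 64 names on 60 probes, of 21330 genes on 24881 probes.

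The cultures combined Wistar rat astrocytes, taken at postnatal day 1, with hippocampal neurons of mouse embryos at embryonic day 18 plated on top. CC was RNA of the whole co-culture. CC-CJ was RNA of the co-culture after "cold jet", in which chilled buffer from a pipette washes the neurons off the astrocyte layer. AA-CJ was RNA of astrocytes grown without neurons and given the same jet. Each of the 4 arrays carried CC-CJ in Cy3, against AA-CJ in Cy5 on 2 arrays and against CC in Cy5 on the other two. There was no dye swap, so a gene-specific dye effect remains in both ratios and drops out of the difference between them. Per the study's methods the replicates came from different pools of animals. All arrays carried rat probes, while the neurons were mouse cells, and how much mouse RNA each probe captured was not measured. The RNA is bulk RNA, so fewer cells of a type and less RNA per cell cannot be told apart.

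In development, semaphorins mostly repel growth cones through plexins, and the secreted class 3 semaphorins also need a neuropilin as co-receptor. Ephrins are held on the cell surface and bind Eph receptor tyrosine kinases on the touching cell, with signals running both ways. Slits are large secreted proteins that repel axons through Robo receptors, and netrins attract through DCC and repel through UNC5. Astrocytes also make several of these proteins, among them Slits, ephrins and semaphorins. A guidance gene may therefore be carried by the neurons, by the astrocytes or by both, and the 3 comparisons were read for each family. CC-CJ versus CC compares the co-culture after the jet with the whole co-culture, and CC versus AA-CJ compares the whole co-culture with astrocytes in one dye. CC-CJ versus AA-CJ compares what the jet left of the co-culture with astrocytes grown without neurons. The paper reports that the jet removed most but not all neuronal RNA, so CC-CJ is not RNA of astrocytes alone.

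Sequence was looked up in RefSeq promoter windows of the current rat assembly GRCr8, each of 300 bases that lie mostly upstream of the gene's start. A window was found for 50 of the 64 names. Shown are the windows of Sema4f, the single gene called below, and of Sema6d and Plxnc1, which had the highest values of their families in CC versus AA-CJ. Capitals mark GC boxes (GGGCGG on either strand) and CCAAT boxes (CCAAT on either strand), motifs chosen after the sequences were seen.
Sema4f, chr4:116995393-116995692, minus strand: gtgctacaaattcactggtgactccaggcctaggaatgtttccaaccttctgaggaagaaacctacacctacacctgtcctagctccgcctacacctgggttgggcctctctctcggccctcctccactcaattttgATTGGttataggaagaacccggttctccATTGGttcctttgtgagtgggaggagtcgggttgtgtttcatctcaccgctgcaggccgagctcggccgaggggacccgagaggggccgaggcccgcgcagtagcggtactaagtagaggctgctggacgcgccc
Sema6d, chr3:132337106-132337405, plus strand: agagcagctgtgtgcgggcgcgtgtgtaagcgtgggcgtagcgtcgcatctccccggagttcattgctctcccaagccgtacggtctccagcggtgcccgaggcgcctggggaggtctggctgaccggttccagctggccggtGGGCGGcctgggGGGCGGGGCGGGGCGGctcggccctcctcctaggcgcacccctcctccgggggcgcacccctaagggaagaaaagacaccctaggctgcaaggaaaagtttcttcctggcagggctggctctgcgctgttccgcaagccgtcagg
Plxnc1, chr7:31430556-31430855, minus strand: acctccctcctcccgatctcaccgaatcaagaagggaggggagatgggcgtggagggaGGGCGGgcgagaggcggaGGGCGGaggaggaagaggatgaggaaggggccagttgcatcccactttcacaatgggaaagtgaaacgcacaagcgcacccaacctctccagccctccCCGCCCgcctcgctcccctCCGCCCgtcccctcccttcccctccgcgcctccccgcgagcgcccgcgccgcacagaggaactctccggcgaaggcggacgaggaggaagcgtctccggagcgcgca
The Sema4f window held 2 CCAAT boxes and no GC box, while those of Sema6d and Plxnc1 held 4 GC boxes each and no CCAAT box. The last 3 of the Sema6d boxes run into one another. Over the 50 windows, 54.0% held a GC box, against 33.1% of the 33469 windows of the table, 34.0% held a CCAAT box, against 37.5%, and 0.0% held a TATA box (TATAAA on either strand), against 14.2%. Their median GC content was 60.7%, and that of all windows 51.7%. These are matches of letters only, and no binding was measured.

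Most of the guidance genes with a signal were present in astrocytes without neurons, as were most genes of the array with a signal. Of the 44 names that passed in any condition 41 passed in AA-CJ. For all names the numbers were 19242 of 21331. A probe was well above background on both AA-CJ arrays for 41 of the 64 names, or 64.1%, against 54.0% of all gene names on the array. In CC the count was 44 names, or 68.8%, against 59.1% of all names. In CC-CJ, where all 4 arrays had to pass, it was 32 of the 64 names, against 47.4% of all names. All 3 Slits were well above background in every condition. Of 20 semaphorins, 15 were so in AA-CJ and 16 in CC, of 10 Eph receptors 7 and 8, and of 8 plexins 5 and 5. By this rule 3 names passed in CC alone, which were Efna1, an ephrin-A, Epha7, an Eph receptor, and Sema3a, the class 3 semaphorin first known as collapsin. They were not absent elsewhere. Epha7 was well above background on 3 of 4 CC-CJ arrays, Sema3a on 2 of 4, and Efna1 on 1 of 2 AA-CJ arrays. How many of all names pass in CC alone was not counted, so the 3 are no result about these families. Nowhere did 20 names pass, among them Dcc, Ntn1, Nrp2, Robo3, Robo4, Unc5a, Efnb2, Efnb3, Epha3 and Plxna4, and for these no difference can be stated at the signal of these arrays.

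**Figure D1:**
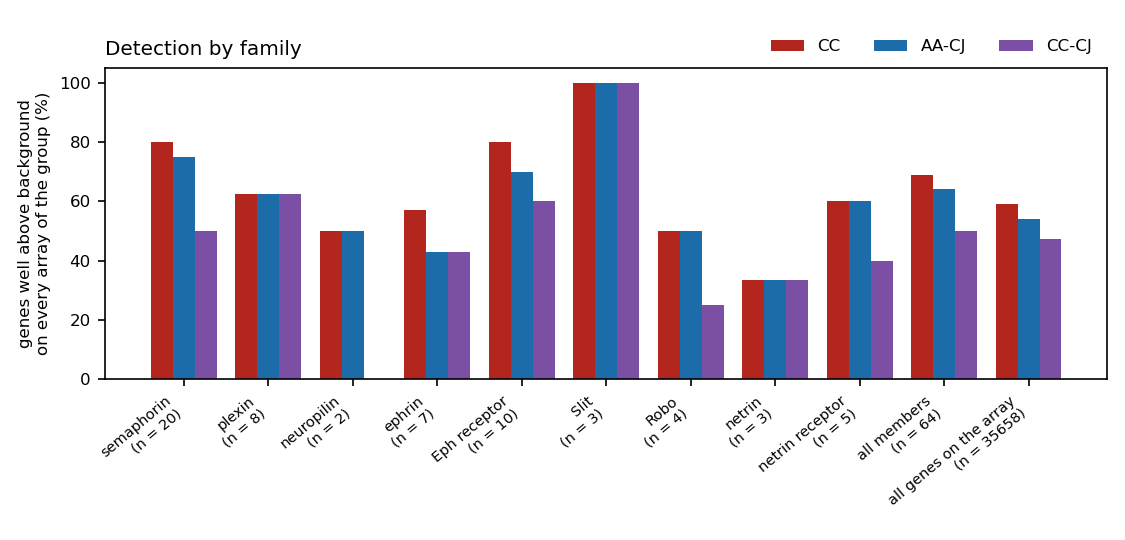
Share of the gene names of each family (vertical axis, percent) with a probe well above background on every array of CC, AA-CJ or CC-CJ, with the number of names under each family. CC and AA-CJ have 2 arrays each and CC-CJ has 4, so its bars meet a stricter condition. The Slits stood at 100% in all 3 conditions.

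The median differences of the guidance genes were small beside those of neuron markers. Differences are on the log2 scale of background-corrected intensity with 50 units added, which understates changes of dim probes, and a negative value of CC-CJ versus CC is a lower level after the jet. In CC-CJ versus CC the 44 tested members had a median of -0.09, with 29 below 0, and all 21330 genes a median of -0.02. When the arrays were centred on their median in place of loess, the members' median of -0.49 stood above that of all genes, -0.59, so the members' position relative to all genes turned. In CC versus AA-CJ the members' median was 0.06 and that of all genes 0.002, and in CC-CJ versus AA-CJ the medians were -0.01 and -0.02. On Agilent's own log ratio, which has no added offset, the members' median was -0.18 in CC-CJ versus CC and 0.20 in CC versus AA-CJ, against -0.002 and -0.03 for all genes. The 11 neuron markers tested had medians of -1.45, 1.56 and 0.11 in CC-CJ versus CC, CC versus AA-CJ and CC-CJ versus AA-CJ.

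In limma, 1 of the 44 members passed an adjusted p of 0.05 in CC-CJ versus CC, Sema4f, which was lower after the jet. Of all genes, 2.24% were called lower and 0.0985% higher in this comparison. At an unadjusted p of 0.05, 10 of the 44 members lay lower and 1 higher, against 11.8% and 5.1% of all genes. In CC-CJ versus AA-CJ, 0 members were called, with 1.87% of all genes called higher and 1.11% lower. At an unadjusted p of 0.05, 4 members lay higher and 3 lower there, against 10.8% and 11.8% of all genes. In CC versus AA-CJ, 0 members were called, with 2.56% of all genes called higher and 0.0797% lower. At an unadjusted p of 0.05, 7 members lay higher and 0 lower, against 11.3% and 6.42% of all genes.

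One criterion of the study's methods, a log2 ratio beyond 2 SD of the array's mean on both arrays, was applied to each probe without the methods' further step of keeping only genes whose probes gave comparable results. It selected 0 members in CC-CJ versus AA-CJ, against 1.12% of all names higher and 0.681% lower. In CC-CJ versus CC it selected 0 higher, against 0.135%, and 1 lower, Epha5, through one of its probes, against 1.39%. The other Epha5 probe gave a different value, near 0, so Epha5 would not have met that further step. The 95% intervals of all 44 members lay between -0.96 and 0.57 in CC-CJ versus CC, between -0.84 and 0.64 in CC-CJ versus AA-CJ and between -0.89 and 0.99 in CC versus AA-CJ. On this scale a change of 2-fold or more, a log2 difference of 1, was therefore outside every interval. On Agilent's log ratio the differences in CC-CJ versus CC reached from -1.99 for Nrp1 to 0.55 for Epha1, so these bounds hold for the scale used.

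**Figure D2:**
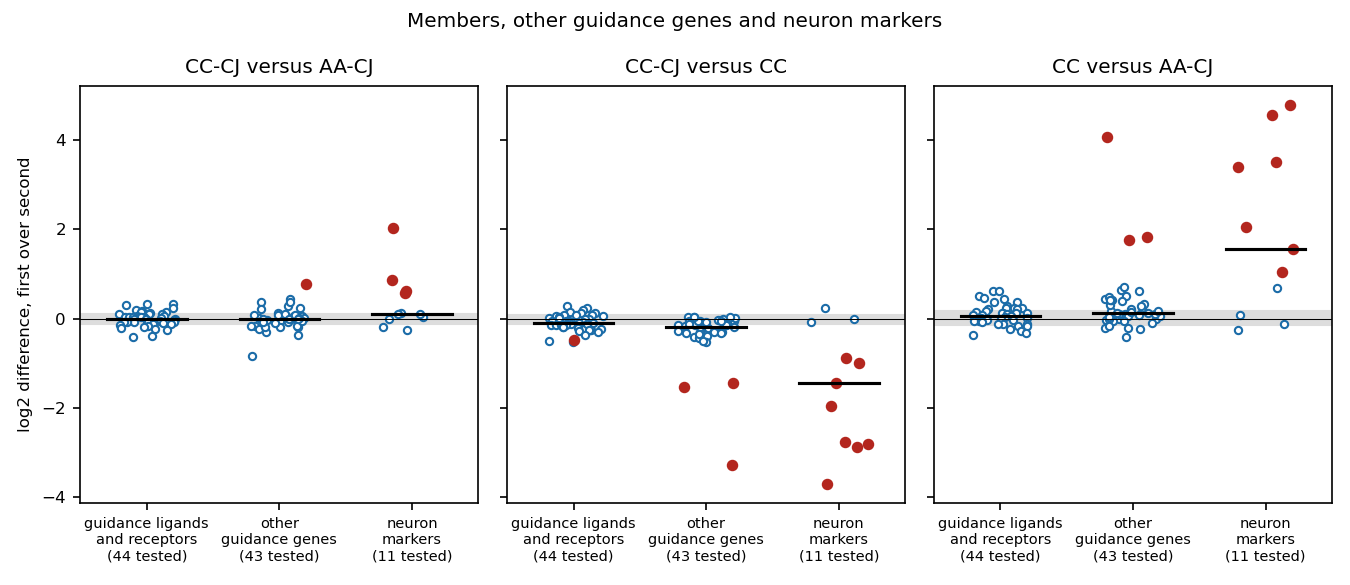
log2 difference (vertical axis) in each of the 3 comparisons, with 1 point per gene for the 44 members, 43 other guidance genes and 11 neuron markers. Filled red points passed an adjusted p of 0.05 in limma, black bars are medians, and the grey band spans the middle of all genes from the first to the third quartile. The members stayed within 1 log2 unit of 0 while neuron markers fell to -3.70 after the jet.

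The called gene was one of the semaphorins. With 2.24% of all genes called lower in CC-CJ versus CC, 1 call among 44 members is near that share and no result about the family. Of 20 semaphorins, 16 were tested, 11 of them below 0 in CC-CJ versus CC with a median of -0.14. Their medians were 0.05 in CC versus AA-CJ and -0.03 in CC-CJ versus AA-CJ. The 16 spanned -0.52 to 0.23 in CC-CJ versus CC. Sema4f is a transmembrane semaphorin of class 4 known from nervous tissue. Its log2 ratio of CC-CJ to CC was -0.38 and -0.58 on the 2 arrays, and its ratio of CC-CJ to AA-CJ was 0.01 and 0.04. In levels (log2 intensity), CC stood at 7.06 and 7.23, AA-CJ at 6.39 and 6.48, and CC-CJ between 6.40 and 6.68 over its 4 arrays. Both CC values lay above all the others, an order that was not counted over all genes. The difference between CC-CJ and CC was -0.48 ± 0.09 (SE, limma, adjusted p = 0.0483), which put CC-CJ at 71.7% of CC. CC versus AA-CJ gave 0.51 ± 0.12 (adjusted p = 0.104 in limma), which did not pass.

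The Sema4f call was close to the threshold and the probe was dim, well above background in CC-CJ on 3 of 4 arrays. Without replicate 1 of the CC arrays its adjusted p was 0.0667, and without replicate 2 it was 0.558, while the difference stayed negative, at -0.58 and -0.38. With no background correction the adjusted p was 0.0824, with an intensity trend in the prior 0.0523, with the replicate number as a block 0.129, and with Agilent's log ratio 0.166, where the difference was -1.78. Fitted among all kept probes instead of gene means, an alternative added after values were seen, its single probe had an adjusted p of 0.0503. The probe lies at chr4:117105351-117105410 of the older rat build rn4, listed on the minus strand, and its place in the exons was not determined here.

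Sema6b and Sema6d, transmembrane semaphorins of class 6, had values of the same kind without passing. Sema6b, well above background in CC-CJ on 3 of 4 arrays, had ratios of -0.35 and -0.68 to CC and of 0.17 and 0.02 to AA-CJ. Its levels were 7.13 and 7.39 in CC, 6.49 and 6.65 in AA-CJ, with CC-CJ at 6.66 to 6.78. The difference was -0.52 ± 0.10 in CC-CJ versus CC (SE, limma, adjusted p = 0.0681) and 0.61 ± 0.15 in CC versus AA-CJ (adjusted p = 0.102). Sema6d had ratios of -0.29 and -0.31 to CC and of 0.52 and 0.12 to AA-CJ, with levels of 8.43 and 8.29 in CC, 7.60 and 7.92 in AA-CJ and 7.98 to 8.14 in CC-CJ. Its CC levels were the highest, its AA-CJ levels the lowest, and CC-CJ lay between, an order not counted over all genes. The 3 differences were -0.30 ± 0.11, 0.62 ± 0.16 and 0.32 ± 0.11 for CC-CJ versus CC, CC versus AA-CJ and CC-CJ versus AA-CJ, with adjusted p of 0.249, 0.111 and 0.157 in limma.

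Among the secreted class 3 semaphorins, Sema3a was well above background on both CC arrays, on neither AA-CJ array and on 2 of 4 CC-CJ arrays. It was tested through its signal in CC alone, where it is brightest, and CC versus AA-CJ gave 0.36 ± 0.11 (limma, adjusted p = 0.169). Sema3b had the lowest value of the family in CC-CJ versus AA-CJ, -0.25 ± 0.09 (adjusted p = 0.167 in limma), from ratios of -0.35 and -0.14. At the other end of CC-CJ versus CC lay Sema4b, a dim gene well above background in CC-CJ on 2 of 4 arrays. It had ratios of 0.29 and 0.18 and a difference of 0.23 ± 0.09 (adjusted p = 0.271 in limma). It was also the family's lowest in CC versus AA-CJ, at -0.28 ± 0.13 (adjusted p = 0.319).

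**Figure D3:**
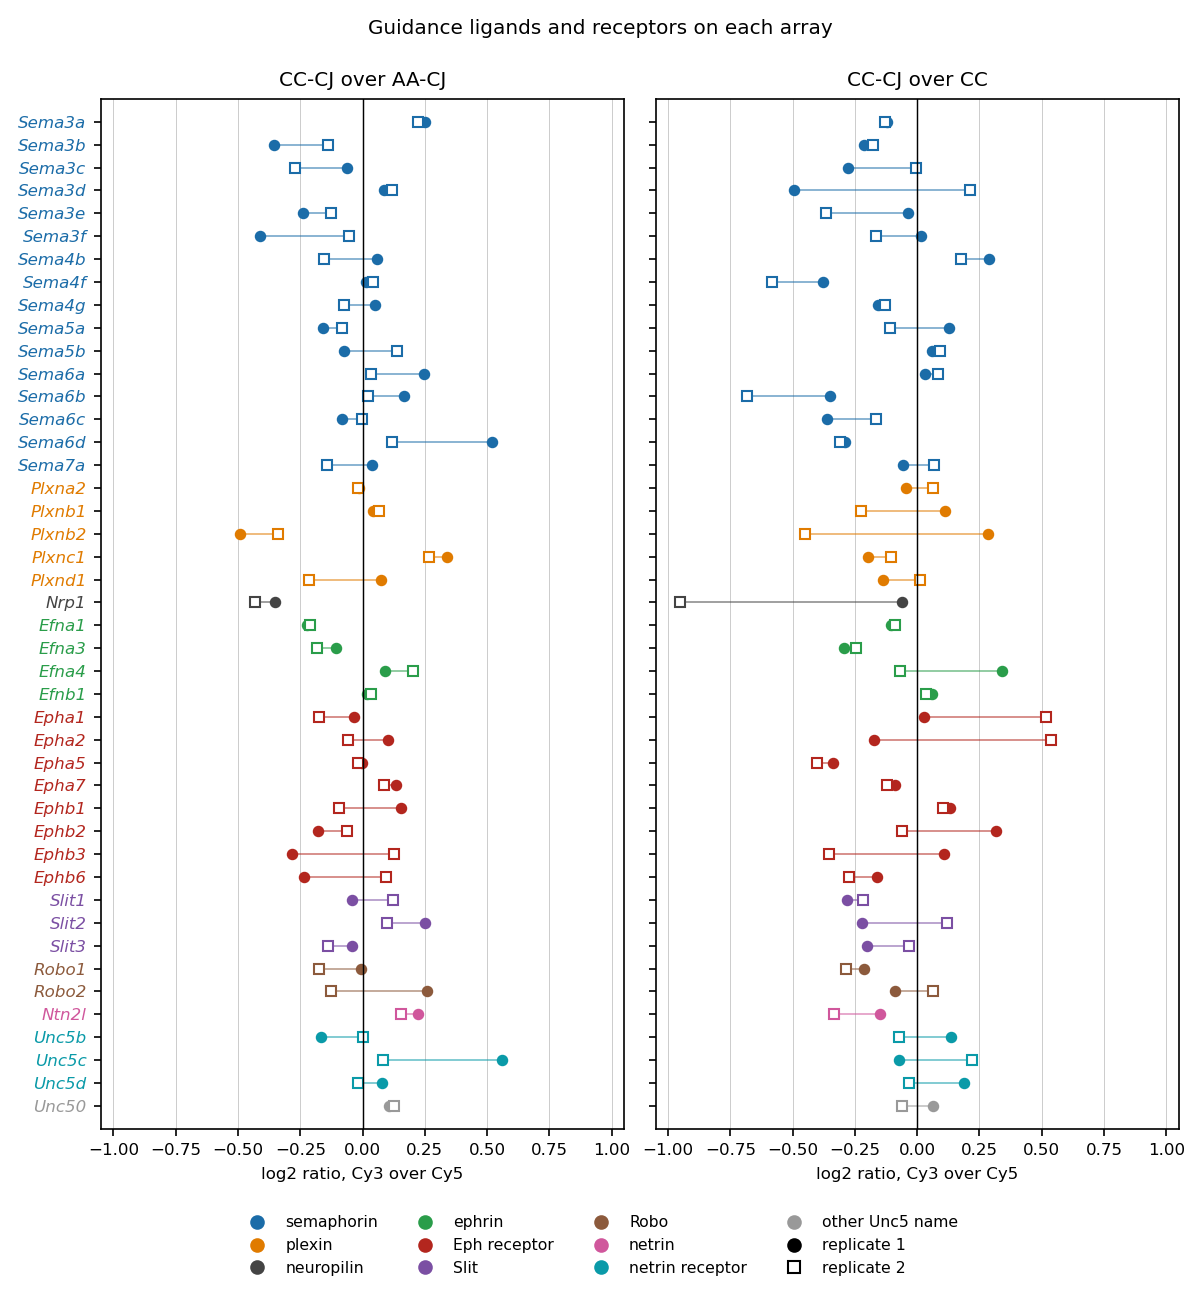
log2 ratio of Cy3 to Cy5 (horizontal axis) of the 44 tested members on each array, with CC-CJ over AA-CJ on the left and CC-CJ over CC on the right. Filled circles are replicate 1, open squares replicate 2, a line joins the 2 arrays of a gene, and colours mark families. Sema4f and Sema6b lie left of 0 on both CC arrays and near 0 on the AA-CJ arrays.

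Of the semaphorin receptors, 5 of 8 plexins were tested, with medians of -0.06 in CC-CJ versus CC, -0.01 in CC versus AA-CJ and -0.02 in CC-CJ versus AA-CJ. Plxnc1, the receptor of Sema7a, had ratios of 0.34 and 0.27 to AA-CJ and of -0.20 and -0.11 to CC. Its levels were 6.93 and 7.01 in AA-CJ, 7.17 to 7.27 in CC-CJ and 7.37 and 7.38 in CC. AA-CJ was thus lower than both other conditions on every array, an order not counted over all genes. The difference was 0.30 ± 0.08 in CC-CJ versus AA-CJ (SE, limma, adjusted p = 0.0943) and 0.45 ± 0.11 in CC versus AA-CJ (adjusted p = 0.111). Sema7a itself, which is anchored in the membrane, had 0.004 ± 0.09 in CC-CJ versus CC and -0.05 ± 0.09 in CC-CJ versus AA-CJ (adjusted p = 0.987 and 0.781 in limma).

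Plxnb2, a receptor of class 4 semaphorins, had the lowest value of all 44 members in CC-CJ versus AA-CJ. Its ratios were -0.49 and -0.34, and the difference was -0.41 ± 0.17 (limma, adjusted p = 0.203). Its ratios to CC were 0.29 and -0.45 and so lay on both sides of 0. Nrp1, the neuropilin that pairs with Sema3a, had ratios of -0.35 and -0.43 to AA-CJ and of -0.06 and -0.95 to CC. The CC level was 6.69 on one array and 7.42 on the other, so the difference of -0.51 ± 0.19 in CC-CJ versus CC (limma, adjusted p = 0.255) rested on replicate 2. In CC-CJ versus AA-CJ it was -0.39 ± 0.19 (adjusted p = 0.284). Nrp2 was not well above background on all arrays of any condition.

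Of 7 ephrins, 4 were tested, with medians of -0.02 in CC-CJ versus CC, -0.005 in CC versus AA-CJ and -0.06 in CC-CJ versus AA-CJ. Efnb1, a transmembrane ephrin, had ratios of 0.02 and 0.03 to AA-CJ and of 0.06 and 0.03 to CC. Its 8 channel levels ran from 9.08 to 9.25, and its 95% intervals were -0.16 to 0.21 in CC-CJ versus AA-CJ and -0.14 to 0.23 in CC-CJ versus CC. Efna3, a lipid-anchored ephrin, was the lowest of the family in CC-CJ versus CC, with ratios of -0.29 and -0.25 and a difference of -0.27 ± 0.08 (limma, adjusted p = 0.175). Efna4 was the highest, at 0.14 ± 0.11 (adjusted p = 0.583), and its arrays lay at 0.34 and -0.07. In CC-CJ Efna1 did not rise well above background on any array, and in AA-CJ it did so on 1 of 2 arrays. The estimate put AA-CJ 1.16-fold above CC-CJ, which did not pass (adjusted p = 0.168 in limma). The 95% interval of the log2 difference in CC-CJ versus AA-CJ was -0.40 to -0.03.

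Of 10 Eph receptors, 8 were tested, with medians of 0.007 in CC-CJ versus CC, -0.02 in CC versus AA-CJ and -0.04 in CC-CJ versus AA-CJ. Epha5, a receptor of A-type ephrins known from neurons, was the lowest in CC-CJ versus CC, at -0.37 ± 0.08 (limma, adjusted p = 0.0799). Epha1, known from epithelia, was the highest, at 0.27 ± 0.13 (adjusted p = 0.339), with ratios of 0.03 and 0.52, so that value rested on one array. It was also the lowest of all members in CC versus AA-CJ, at -0.38 ± 0.18 (adjusted p = 0.329). In CC-CJ versus AA-CJ the family lay between -0.12 for Ephb2 and 0.11 for Epha7.

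The Epha5 value joined 2 probes that gave different answers. The probe at chr14:25880307-25880366 of rn4 had ratios of -0.63 and -0.89 to CC and of -0.02 and -0.06 to AA-CJ. Its levels were 7.49 and 7.74 in CC, 6.50 and 6.76 in AA-CJ and 6.49 to 6.86 in CC-CJ. Fitted on its own in limma among all kept probes, an alternative added after these values were seen, it was lower after the jet by -0.76 ± 0.10 (adjusted p = 0.00929) and higher in CC than AA-CJ by 0.72 ± 0.14 (adjusted p = 0.0470). The probe at chr14:25884306-25884365, downstream on the listed plus strand and designed to another transcript record, had ratios of -0.05 and 0.08 to CC and of 0.01 and 0.03 to AA-CJ. Its difference was 0.02 ± 0.09 in CC-CJ versus CC (adjusted p = 0.944 in limma). Both probes were well above background in all 8 channels.

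Of the 13 members with more than 1 tested probe, the probes differed in sign for 6 in CC-CJ versus AA-CJ, 6 in CC-CJ versus CC and 5 in CC versus AA-CJ. The median spread between probes of a gene was 0.18 in CC-CJ versus CC. Besides Epha5, a probe of Sema3d, a secreted class 3 semaphorin, passed on its own. It had ratios of 0.34 and 0.27 to AA-CJ and of -0.41 and -0.32 to CC, and was higher in CC than AA-CJ by 0.67 ± 0.12 (limma, adjusted p = 0.0383). The other Sema3d probe had ratios of -0.58 and 0.74 to CC and was well above background in AA-CJ on neither array, and the mean over both gave 0.24 ± 0.22 in CC versus AA-CJ (adjusted p = 0.617). The 3 probes of Plxna2, a receptor for class 3 and class 6 semaphorins, ran from -0.28 to 0.48 in CC-CJ versus CC, and their mean of 0.01 stands for none of them.

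**Figure D4:**
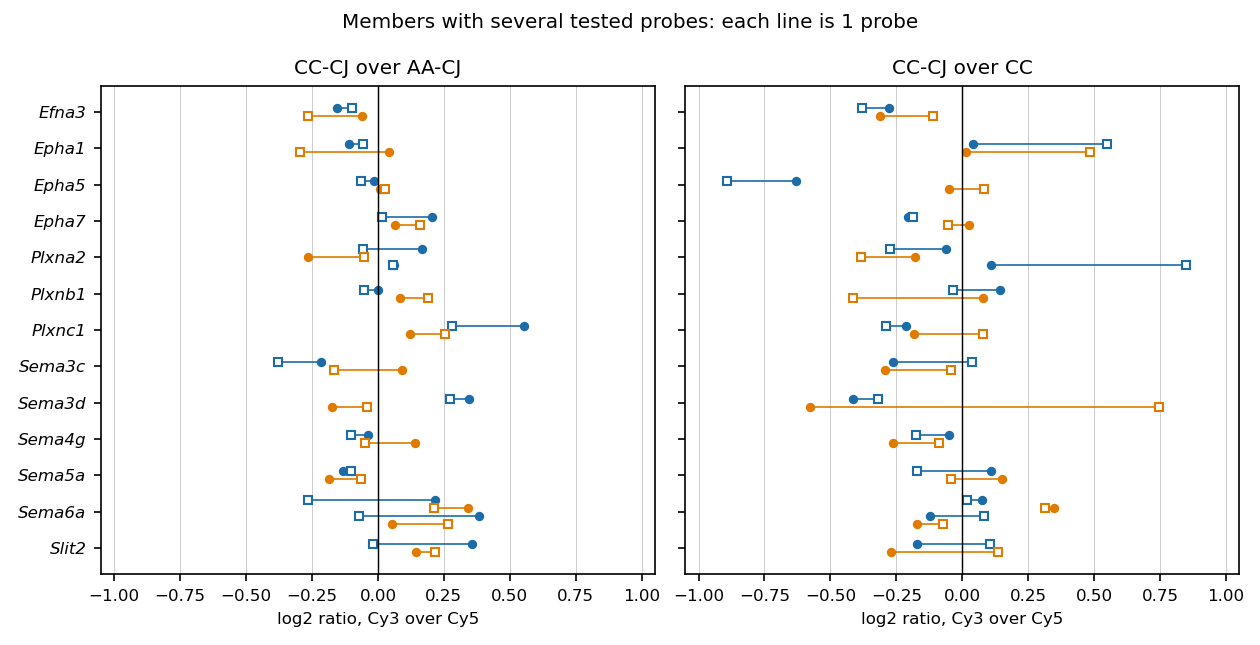
log2 ratio of Cy3 to Cy5 (horizontal axis) of each probe of the 13 members with more than 1 tested probe, CC-CJ over AA-CJ on the left and CC-CJ over CC on the right. Each line is 1 probe, ordered by position, with a filled circle for replicate 1 and an open square for replicate 2. One Epha5 probe lies at -0.63 and -0.89 against CC while the other lies at -0.05 and 0.08.

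The Slits were measured in every channel. Slit2, a secreted repellent, had one probe with levels of 13.0 to 13.4 over all 8 channels and another with 9.84 to 10.4. Over both, its ratios were 0.25 and 0.10 to AA-CJ and -0.22 and 0.12 to CC. The differences were 0.17 ± 0.11 in CC-CJ versus AA-CJ and -0.05 ± 0.11 in CC-CJ versus CC (limma, adjusted p = 0.383 and 0.845). Slit3 had -0.09 ± 0.09 and -0.12 ± 0.09 in the same comparisons (adjusted p = 0.595 and 0.535). Slit1, which is known from neurons, had ratios of -0.28 and -0.22 to CC and of -0.04 and 0.12 to AA-CJ, with a difference of -0.25 ± 0.09 in CC-CJ versus CC (adjusted p = 0.226 in limma). Its levels were 7.02 and 7.12 in CC, 6.92 and 6.76 in AA-CJ and 6.74 to 6.90 in CC-CJ. All 3 Slits lay below 0 in CC-CJ versus CC and above 0 in CC versus AA-CJ, and none passed the test. Both comparisons use the CC arrays, so the signs are not separate observations. Of all 21330 genes, 11993 lay below 0 in CC-CJ versus CC and 10724 above 0 in CC versus AA-CJ.

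**Figure D5:**
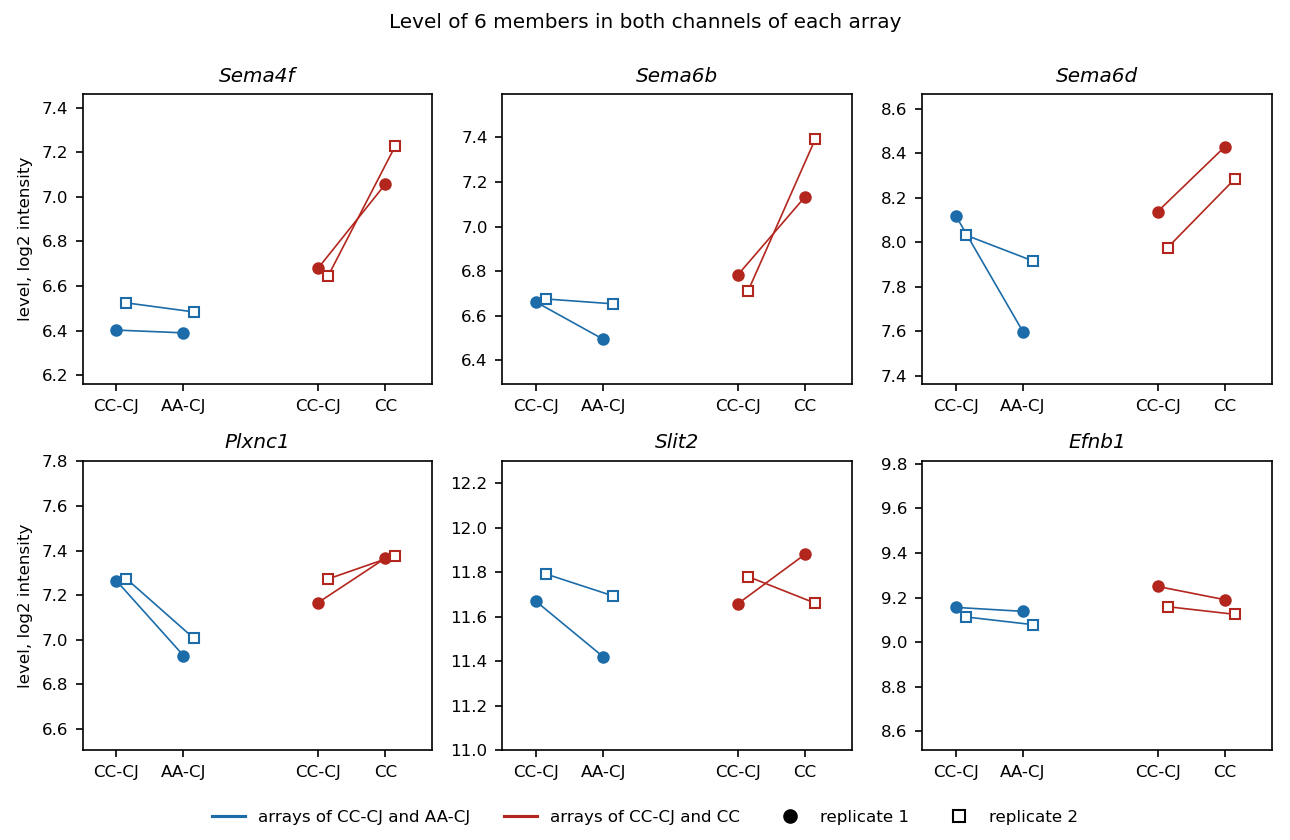
Level (vertical axis, log2 intensity, the same span in each panel) of 6 members in both channels of each array. Lines join the 2 channels of an array, with blue for the arrays of CC-CJ and AA-CJ, red for those of CC-CJ and CC, filled circles for replicate 1 and open squares for replicate 2. Sema4f and Sema6b have their highest levels in CC, and Efnb1 stays between 9.08 and 9.25.

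The Slit receptors were dim. Robo1 was well above background on both CC and both AA-CJ arrays and on neither CC-CJ channel of the CC arrays. The estimate put CC 1.19-fold above CC-CJ, which did not pass (limma, adjusted p = 0.225). The Robo1 ratios to CC were -0.21 and -0.29. Robo2 had -0.01 ± 0.11 in CC-CJ versus CC and 0.07 ± 0.11 in CC-CJ versus AA-CJ (limma, adjusted p = 0.966 and 0.776), with arrays on both sides of 0 in each comparison.

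For netrins, the single gene tested was Ntn2l, the array's name for a netrin-2-like ligand. Its ratios were 0.22 and 0.15 to AA-CJ and -0.15 and -0.34 to CC, with levels of 7.60 and 7.70 in AA-CJ, 7.75 to 7.85 in CC-CJ, then 7.94 and 8.08 in CC. The levels of the 3 conditions did not overlap. How many of all genes show such an order was not counted, so it is no result about Ntn2l. The differences were 0.43 ± 0.12 in CC versus AA-CJ, -0.24 ± 0.09 in CC-CJ versus CC and 0.19 ± 0.09 in CC-CJ versus AA-CJ (limma, adjusted p = 0.148, 0.243 and 0.263). Of the netrin receptors, Unc5c had ratios of 0.56 and 0.08 to AA-CJ and of -0.07 and 0.22 to CC. Its difference of 0.32 ± 0.13 in CC-CJ versus AA-CJ (limma, adjusted p = 0.221) was the highest of all members in that comparison and fell to 0.08 without replicate 1. Unc5b and Unc5d lay between -0.11 and 0.08 in all 3 comparisons. Unc50, named above as no receptor, had 0.12 ± 0.08 in CC-CJ versus AA-CJ (adjusted p = 0.446 in limma).

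Read by family, the one member called lower in CC-CJ than in CC was Sema4f, 1 of 16 semaphorins and of 44 members tested. Of all genes 2.24% were called lower, so this single call is no result about the family. A lower level after the jet does not tell neurons from other cells, since markers of microglia, the oligodendrocyte lineage and fibroblasts were called lower too, and no family was assigned to neurons or to astrocytes. In the plexin, neuropilin, ephrin, Eph, Slit, Robo, netrin and UNC5 families limma called 0 genes in this comparison, with 6 of them lower at an unadjusted p of 0.05, and Epha5 was selected through one probe by the 2 SD criterion. Sema4f was also present in astrocytes alone on both arrays. Among ligands, 7 of 24 were lower and 1 higher after the jet at an unadjusted p of 0.05, with a median of -0.13, and among receptors 3 of 19 were lower and 0 higher, with a median of -0.06. Of all genes 11.8% were lower and 5.1% higher at that p.

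Other genes of the guidance pathway held the larger differences in CC-CJ versus CC and CC versus AA-CJ. From a list of 57 such genes (adhesion molecules of the L1 and contactin families, collapsin response mediators, repulsive guidance molecules and intracellular effectors), 47 were on the array and 43 were tested. In CC-CJ versus CC, 3 were called lower and 0 higher, with 18 lower at an unadjusted p of 0.05, and the median was -0.19. Of all genes 2.24% were called lower and 11.8% were lower at an unadjusted p of 0.05. The median size of the difference, without its sign, was 0.19 for these genes and 0.13 for the members in CC-CJ versus CC, 0.20 and 0.13 in CC versus AA-CJ, but 0.08 and 0.10 in CC-CJ versus AA-CJ. Several of these genes, among them Crmp1, Dscam and Tiam1, were tested through their signal in CC alone, where they were highest. Epha7 and Sema3a among the members were too. The counts and medians of the comparisons with CC include such genes and can lean toward CC. L1cam, an adhesion molecule of axons, had -3.29 in CC-CJ versus CC and 4.07 in CC versus AA-CJ (limma, adjusted p = 0.000113 and 0.000176). Dpysl3, a collapsin response mediator that acts downstream of semaphorin receptors, had -1.53 and 1.76 (adjusted p = 0.00206 and 0.00523 in limma). Cntn1, a contactin, had -1.44 and 1.82 (adjusted p = 0.000459 and 0.000770 in limma). Neither L1cam nor Cntn1 had a probe well above background on both AA-CJ arrays, so their differences from AA-CJ rest on a dim channel. L1cam was the one gene of this list called in CC-CJ versus AA-CJ, at 0.77 (adjusted p = 0.0263 in limma). The part of neuronal RNA left after the jet in that value was not tested.

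Markers of several cell types moved with CC and the jet, and their part in the Sema4f value was not tested. Of the 13 neuron markers on the array 11 were tested, with 8 lower after the jet and 7 higher in CC than AA-CJ. Some, among them Snap25 and Gad2, were tested through their signal in CC alone, where they were highest. In CC-CJ versus AA-CJ 4 of the 11 were called higher and 0 lower, with the largest difference 2.03 for Gap43. Of the 5 microglia markers tested 1 was called higher there, C1qa at 1.19. The source of these higher values in CC-CJ was not tested, and a gene-specific dye effect cannot be told apart in this comparison. Slc17a7 and Gad1 were not well above background on all arrays of any condition. The summed linear intensity of all probes of the 13 neuron markers was 13807 to 14531 over the CC-CJ channels, 14050 and 14428 for AA-CJ, and 25511 and 26408 for CC. In CC-CJ versus CC, 3 of 5 microglia markers, 2 of 7 oligodendrocyte lineage markers and 2 of 5 fibroblast markers were also called lower, with medians of -0.53, -0.38 and -0.17. None of the 9 astrocyte markers was called in limma in CC-CJ versus CC, where 0 had an unadjusted p under 0.05, and their median was 0.005. The summed level of the 7 microglia markers on the array was 1394 to 1704 over the CC-CJ channels, 1055 and 1163 for AA-CJ, and 2655 and 2657 for CC. That of the 6 fibroblast markers was 103758 to 118582, 116450 and 126933, and 138591 and 139363.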

How the data were processed

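Two-colour Agilent 4x44K rat arrays (Feature Extraction 9.5.1.1) were used, 4 in all, with RNA primed by oligo dT. The deposited scanner files hold intensity per spot in both channels and Agilent's own log10 ratio of Cy5 to Cy3, and the table the authors deposited holds their log2 ratios of Cy5 to Cy3 after local intensity-dependent normalization. In R 4.3.3 with limma 3.58.1, mean intensities were corrected with normexp (offset 50) and normalized within arrays by loess (span 0.3), with control and outlier spots given no weight. Ratios were turned to log2 Cy3 over Cy5, and probes of a gene name were averaged. For levels, average intensities were also brought to one distribution across arrays (Aquantile in limma). A probe was kept when it was well above background, by the scanner's mark, on all arrays of CC-CJ, AA-CJ or CC. One fit over the 4 arrays gave the 3 comparisons, which share samples, with Benjamini-Hochberg adjustment over 21330 genes and 2 residual degrees of freedom (prior 4.67). On the arrays 54.3%, 55.8%, 54.5% and 50.3% of Cy3 spots and 58.6%, 62.5%, 56.3% and 62.6% of Cy5 spots were well above background, and the small number of arrays limits the precision. All arrays were scanned on one slide. The fit was tested on simulated data. Named are members that passed, those whose probes disagreed where 1 passed, and the highest and lowest of each family in a comparison. Sema3a, Sema7a and Efnb1 were added after their values were seen. The members and lists were chosen with earlier results of these data known. Alternatives in background correction, normalization, filter, probe choice, fit and replicates were run, and promoter sequences came from RefSeq.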

Additional observations from a re-analysis of the deposited data

How the results depend on the processing

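The members called in CC-CJ versus AA-CJ numbered 0 in every alternative except median centring in place of loess, which called 22. That centring moved the median of all genes to -0.48 in CC-CJ versus AA-CJ and -0.59 in CC-CJ versus CC. It called 28 members in CC-CJ versus CC and 3 in CC versus AA-CJ. At an unadjusted p of 0.05 in limma it had 23 of 44 members and 13954 of 21330 genes in CC-CJ versus AA-CJ. In CC-CJ versus CC these were 29 and 14882, and in CC versus AA-CJ 11 and 4219. It turned Sema6d to -0.35 and Unc5c to -0.79 in CC-CJ versus AA-CJ, the first above and the second below the median of all genes. For the other alternatives the share of all genes called is not given, so their counts are no result about the members. In CC-CJ versus CC the single call became 2 with the authors' processed values (Sema4f and Sema6b), 2 with the brightest probe of each gene (Epha5 and Sema4f), and 0 with an intensity trend in the prior or with the filter for both channels of all arrays, which leaves Sema4f untested. With no background correction the 1 call was Sema6b and with Agilent's log ratio Epha7 in place of Sema4f, and with each probe on its own it was Epha5. In CC versus AA-CJ, Agilent's log ratio called 1 (Plxnc1), the filter for both channels 1 (Sema3d), the brightest probe 2 and each probe on its own, added after seeing the data, 2 (Epha5 and Sema3d both times). Leaving out 1 array gave 0 to 0 calls in CC-CJ versus AA-CJ, 0 to 2 in CC-CJ versus CC and 0 to 1 in CC versus AA-CJ. The replicate block gave 0 calls in each of the 3 comparisons, and the crossed block, added after the deviations of same-numbered arrays correlated at r = -0.112 over 21326 genes, gave 0, 2 and 0. Apart from median centring, none of 358 recomputed differences of members with an unadjusted p under 0.05 changed sign. Many of them could not. Alternatives that changed only the prior, the block or the arrays of another comparison left the difference itself as it was. These members were also picked by their p in the same data, so the count is no measure of stability. The cause of the shifts in calls was not tested. Dim probes limit the result: 20 of 64 names had no usable signal, and the offset shrinks differences near background.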
